A study of Mus musculus with 3 samples.

Results

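Dividing 4T1 tumour cells of a tumour carrying the control guide were described here. 4T1 is a mouse mammary carcinoma cell line that forms tumours in mice. The members were barcodes of the sgVC library with at least 200 detected genes and at most 20% mitochondrial UMIs (unique molecular identifiers, each counting 1 captured RNA molecule). In each of them Wfdc2, Krt8 and Krt18 together made up at least 0.1% of UMIs and Epcam had 0 UMIs. Neutrophil genes (S100a8, S100a9, G0s2, Hdc, Csf3r) stayed under 0.5% and complement C1q genes under 0.1%. The last condition was that Top2a, Mki67, Cdk1, Ube2c and Ccnb1, called the rule genes below, together reached 0.05% of UMIs. The rule found 1854 cells, which were 19.3% of the 9610 sgVC cells kept, and the whole series held 17088 barcodes. They were compared with the 2461 tumour cells of the same library that met every condition except the last.

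The tumour came from female mice 8 to 10 weeks old bearing a graft of the line 4T1-sgVC, whose genotype is labelled WT, and the animals were housed for 8 days. The other analysed tumour came from 4T1-sgCPT1A cells, which carry a guide against Cpt1a, the enzyme that loads long-chain fatty acids onto carnitine for entry into mitochondria. Whole tumours were dissociated with papain and DNase I, with no sort named, and 3′ libraries were made with the 10x Chromium version 3 kit. Each of the 2 guides had 1 analysed library, and a further sgCPT1A sample among the 3 listed was not analysed as a library of its own. Neither the number of clones behind each 4T1 line nor any pooling of animals was stated in the sources used here. With 1 library there was no replicate error. All intervals below are exact 95% intervals that cover counting error only, no test between conditions was possible, and a gene was counted as higher or lower when its level differed at least 1.5-fold.

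Cells that divide copy their DNA in S phase and separate the copies in mitosis. Before S phase the MCM helicase is loaded onto replication origins, and E2F transcription factors switch on genes for helicase, polymerases and nucleotide supply. Later, genes of the spindle, the kinetochore and cytokinesis are switched on together through complexes with B-MYB and FOXM1. Their promoters often hold a CHR element and CCAAT boxes.

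Each of the 1854 cells carried rule genes at 0.0502% to 1.31% of its UMIs, with a median of 0.257%. These values chose the cells and are given as a description only. Pooled over the dividing cells, Ube2c (a ubiquitin-conjugating enzyme of the anaphase-promoting complex) stood at 1637 CPM (the UMIs of a gene per 1000000 UMIs of the set), against 33.5 CPM in the other tumour cells. Top2a, the topoisomerase that untangles sister chromatids, stood at 688 and 29.8 CPM. Cdk1, the mitotic kinase, stood at 665 and 58.8 CPM, Mki67, which coats mitotic chromosomes, at 249.98 and 12.9 CPM, and Ccnb1, the cyclin partner of Cdk1, at 148 and 6.73 CPM. All 5 genes were found in 1429 of the dividing cells, and 1788 had 10 or more UMIs of them. At the other end, 9 cells were members through a single UMI. The limit cut a continuous range. The 86 cells at 0.05 to 0.06% had a median of 15.5 rule UMIs, the 145 cells at 0.04 to 0.05% a median of 12, and 648 tumour cells had 0.

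**Figure D1:**
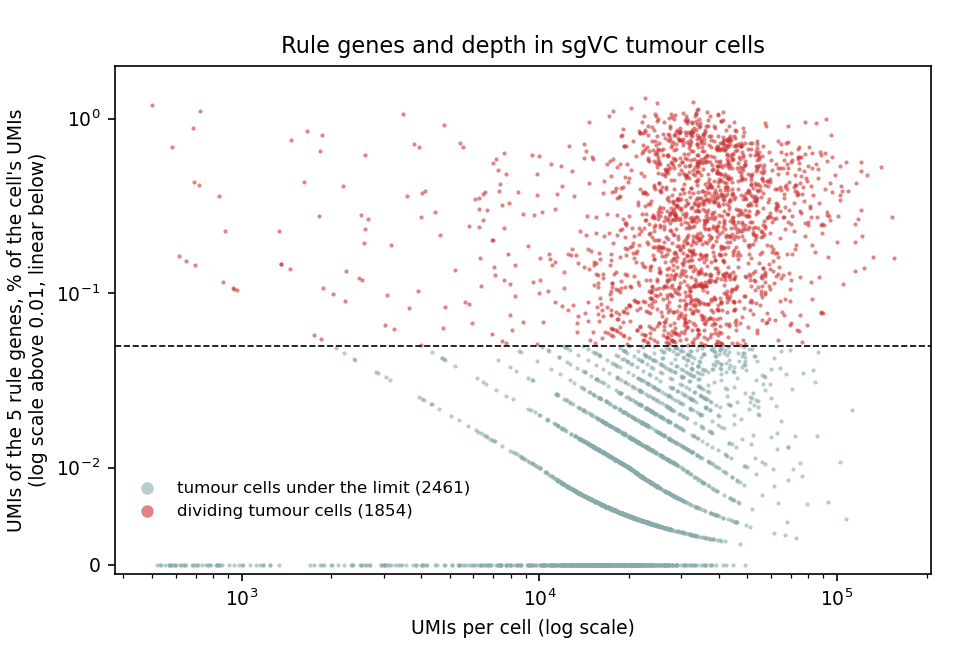
Each point is a tumour cell of the sgVC library. The x axis gives its UMIs and the y axis the percentage of them in the 5 rule genes, with the limit of 0.05% as a dashed line. The 1854 dividing cells lie mostly at higher UMI counts (median 33987.5) than the 2461 others (median 20297).

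Dividing cells were deeper than the other tumour cells. Their median was 33987.5 UMIs and 5662.5 genes, against 20297 UMIs and 4436 genes, and their mitochondrial share was 1.21% against 1.53%. Among all tumour cells 43.0% (41.5 to 44.5%) were dividing. In 10 depth ranges of equal size this share was 28.7% in the shallowest, 11.6% in the next and 83.3% in the deepest. More RNA per cell and deeper capture cannot be told apart in these data. When cells were first thinned to 5000 UMIs, with shallower cells emptied, the share was 43.1%, and in cells of 10000 to 40000 UMIs it was 34.6%. Before thinning, 170 tumour cells had under 5000 UMIs, 58 of them in the dividing set.

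The rule used Wfdc2, Krt8 and Krt18 to choose both sets, so their levels describe the cells and do not check the tumour label. Wfdc2, a secreted protease inhibitor of epithelia, stood at 2457 CPM in dividing and 2487 CPM in other tumour cells, and the keratin genes Krt8 (665 and 657 CPM) and Krt18 (562 and 555.4 CPM) were as close. A UMI of Wfdc2 was seen in 99.6% of dividing cells, and after thinning to 1000 UMIs in 85.97% (84.3 to 87.5%) of 1839 cells, with 15 shallower cells left out. Vim, a mesenchymal intermediate filament gene, was at 3816 CPM. Of a list of 20 epithelial genes only 5 reached the 5 CPM kept for comparison, and Cdh1 (E-cadherin) stood at 0.408 CPM. The rule also capped neutrophil and C1q genes, so low sums of neutrophil and macrophage markers were set by it. Neutrophil markers summed to 137 CPM in dividing and 127 CPM in other tumour cells, macrophage markers to 45.3 and 30.8 CPM, T cell markers to 11.6 and 14.0 CPM, and endothelial markers to 2.56 and 0.588 CPM. Fibroblast markers (Col1a1, Col1a2, Col3a1, Dcn, Lum, Pdgfra) summed to 250.2 CPM in dividing and 405 CPM in other tumour cells. Scrublet marked 73 dividing cells (3.94%), 105 other tumour cells (4.27%) and 291 of the 9610 cells kept as doublets, and these were left in. The 2 libraries shared 18 barcodes, 3 of them among the dividing cells.

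Of 9291 genes at 5 CPM or more over all tumour cells, 668 (7.19%) were higher and 503 (5.41%) lower in the dividing cells, with a median log2 ratio of -0.06. Genes of the cell cycle lists and the rule genes took 3.27% of UMIs in dividing and 1.04% in other tumour cells. Outside those genes, 496 of 9102 were higher and 503 lower. The split moved with the scaling: with ratios centred on the median gene, 745 were higher and 363 lower. When cells were compared within 10 UMI ranges, 552 were higher and 268 lower, 525 and 230 of them shared with the counts above.

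Genes that prepare and copy DNA were higher in the dividing cells. All 18 origin licensing and helicase genes kept for comparison were higher, with a median log2 ratio of 1.10. Dbf4, the activator of the origin-firing kinase Cdc7, was at 127 CPM in dividing and 24.7 CPM in other tumour cells, a log2 ratio of 2.36 (2.28 to 2.45). Mcm10, which helps start the helicase, was at 27.1 and 5.42 CPM (2.32, 2.15 to 2.51). Gmnn, the geminin gene that blocks relicensing, was at 145 and 43.5 CPM (1.74, 1.67 to 1.80). The helicase subunits themselves were closer, as Mcm2 at 63.9 and 41.3 CPM (log2 ratio 0.63) shows. Of the licensing genes, 11 of 18 were still higher within depth ranges and 7 with the limit at 0.1% of UMIs, where the other set also holds cells with 0.05 to 0.1%. With Top2a left out of the rule 11 of 18 were higher and the median was 0.66.

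Of 27 DNA synthesis genes, 23 were higher, 0 were lower and the median log2 ratio was 1.20. Rrm2, the regulated subunit of ribonucleotide reductase, which makes deoxynucleotides, was at 184 CPM in dividing and 24.3 CPM in other tumour cells. Its middle 50% of dividing cells spanned 52.7 to 263 CPM, while at least 75% of the other cells held 0, and the log2 ratio was 2.92 (2.84 to 3.01). Tk1, a thymidine kinase, was at 77.2 and 13.5 CPM (2.52, 2.41 to 2.63). Pcna, the sliding clamp of DNA polymerases, was at 342 and 166 CPM (1.05, 1.01 to 1.08), and Dut, which removes dUTP, at 840.1 and 459.5 CPM (0.87, 0.85 to 0.89). The 4 genes that did not reach 1.5-fold were Ung, Rfc1, Pold2 and Pold3.

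The promoters of the licensing and DNA synthesis genes were searched because these genes were high together. RefSeq windows (GRCm38.p6, 250 bases before to 50 after a start) were at hand for 37 of the 46 genes, with 43 windows. The E2F letters TTTGGCGC, TTTCGCGC, TTTCCCGC or TTTGCCGC, on either strand and with overlaps allowed, were in 14 windows (32.6%). They were in 2.26% of all 32851 windows and in 4.23% of the 9442 windows of genes kept for comparison. The named genes Mcm10, Rrm2, Pcna, Dut and Tk1 have windows with 0 E2F matches. A pair of windows from MCM helicase genes, picked because they hold the letters, is shown, read 5′ to 3′ in the direction of the gene, with E2F letters in capitals.
Mcm3 (chr1:20820263-20820562, minus strand): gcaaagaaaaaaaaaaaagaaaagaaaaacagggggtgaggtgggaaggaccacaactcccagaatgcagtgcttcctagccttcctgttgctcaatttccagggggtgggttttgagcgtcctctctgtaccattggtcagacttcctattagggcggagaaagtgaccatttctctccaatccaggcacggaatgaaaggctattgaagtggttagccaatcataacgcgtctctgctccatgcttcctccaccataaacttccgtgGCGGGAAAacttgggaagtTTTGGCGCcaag
Mcm6 (chr1:128359656-128359955, minus strand): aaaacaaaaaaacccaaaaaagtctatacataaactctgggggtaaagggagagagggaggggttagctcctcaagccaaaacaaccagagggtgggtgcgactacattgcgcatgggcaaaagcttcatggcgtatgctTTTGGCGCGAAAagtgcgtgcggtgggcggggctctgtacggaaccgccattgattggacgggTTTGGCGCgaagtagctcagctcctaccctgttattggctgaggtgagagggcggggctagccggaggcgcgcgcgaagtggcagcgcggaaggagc

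Mitotic genes were also higher in the dividing cells. The 5 rule genes act mainly in G2 and mitosis, so the rule itself favours larger ratios for mitotic than for replication genes, and nothing is read from that order. All 37 spindle and kinetochore genes were higher, with a median log2 ratio of 3.90. So were all 22 mitotic regulators (median 2.86) and all 10 cytokinesis genes (median 3.92). Nusap1 (chr2:119618298-119651244, GRCm38), which bundles spindle microtubules, was at 191 CPM in dividing and 2.37 CPM in other tumour cells. Per cell its quartiles were 27.8, 137 and 294 CPM in dividing cells and 0 in the others, and the log2 ratio was 6.33 (6.08 to 6.59). Aurkb (chr11:69045647-69051664), the kinase of the chromosomal passenger complex, was at 150 and 2.43 CPM (5.95, 5.70 to 6.21). Kif11, the motor that pushes spindle poles apart, was at 81.4 and 1.60 CPM (5.67, 5.36 to 5.99). The partner of Aurkb, Birc5 (survivin) was at 525 and 43.0 CPM (3.61, 3.55 to 3.67), and Cenpa, the centromeric histone, at 533 and 93.7 CPM (2.51, 2.46 to 2.55).

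Among the mitotic regulators, Fbxo5, an inhibitor of the anaphase-promoting complex, was at 96.2 CPM in dividing and 2.43 CPM in other tumour cells (log2 ratio 5.31, 5.06 to 5.57). Plk1, a mitotic kinase, was at 88.8 and 2.55 CPM (5.12, 4.88 to 5.37). Cks1b and Cks2, small subunits of cyclin-dependent kinases, were also present in cells under the limit, at 369 and 126 CPM against 1126 and 558 CPM in dividing cells. Prc1, which bundles the midzone of the spindle for cytokinesis, was at 228 and 8.34 CPM (4.77, 4.64 to 4.91). Anln (anillin), of the contractile ring, was at 225 and 27.0 CPM (3.06, 2.98 to 3.14).

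After thinning to 1000 UMIs, 13.1% (11.6 to 14.7%) of 1839 dividing cells had an Aurkb UMI, against 0.289% of 2423 other tumour cells and 0.0890% of 1124 neutrophils. Unthinned, the shares were 79.1%, 4.27% and 0.367%. The neutrophils, cells that do not divide, had a median of 1510 UMIs, and 237 of them were too shallow to be thinned. For Rrm2 the thinned shares were 15.2%, 1.86% and 0.445%. Other cycle genes were common in neutrophils too. Thinned shares for Pcna were 27.7%, 12.4% and 14.1%, and for Hmgb2 81.9%, 22.2% and 52.8%.

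The promoters of the spindle, mitotic regulator and cytokinesis genes were searched for the CHR letters TTTGAA and the CCAAT box CCAAT on either strand. Windows were at hand for 55 of 69 genes, 61 windows in all. CHR letters were in 62.3% of them, against 17.9% of all windows and 11.9% of windows of genes kept for comparison. CCAAT was in 68.9% against 37.4% of all windows and 51.2% of the licensing and DNA synthesis windows. The E2F letters were in 2 of the 61 windows. Of the licensing and DNA synthesis windows, 18.6% held CHR letters. The windows shown were picked because they hold both sets of letters, with CHR and CCAAT letters in capitals on either strand (TTCAAA and ATTGG are the same letters on the other strand). Ube2c is a rule gene and not among the 69. The window of Nusap1, described above, holds 0 CHR and 0 CCAAT matches. The letters are a description of sequence and do not show binding.
Plk1 (chr7:122159185-122159484, plus strand): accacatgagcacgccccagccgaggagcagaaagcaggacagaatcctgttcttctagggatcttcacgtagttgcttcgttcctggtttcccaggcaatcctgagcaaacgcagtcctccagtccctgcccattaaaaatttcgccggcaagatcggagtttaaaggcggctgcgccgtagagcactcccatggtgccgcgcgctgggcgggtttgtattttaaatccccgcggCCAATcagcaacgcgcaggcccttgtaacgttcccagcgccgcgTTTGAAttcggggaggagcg
Kif11 (chr19:37376132-37376431, plus strand): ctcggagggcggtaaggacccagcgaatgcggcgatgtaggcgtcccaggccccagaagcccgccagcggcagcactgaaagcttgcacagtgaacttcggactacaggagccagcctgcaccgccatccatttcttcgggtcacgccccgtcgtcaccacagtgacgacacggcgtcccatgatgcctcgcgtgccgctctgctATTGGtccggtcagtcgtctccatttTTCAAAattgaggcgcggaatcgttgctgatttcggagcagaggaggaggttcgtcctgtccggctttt
Prc1 (chr7:80294201-80294500, plus strand): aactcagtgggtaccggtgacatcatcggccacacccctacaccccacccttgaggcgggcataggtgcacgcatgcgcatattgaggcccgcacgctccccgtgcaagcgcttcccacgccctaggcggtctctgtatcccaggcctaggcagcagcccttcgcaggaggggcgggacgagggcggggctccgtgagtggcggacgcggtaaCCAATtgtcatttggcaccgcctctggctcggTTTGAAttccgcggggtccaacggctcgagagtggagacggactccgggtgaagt
Ube2c (chr2:164769679-164769978, plus strand): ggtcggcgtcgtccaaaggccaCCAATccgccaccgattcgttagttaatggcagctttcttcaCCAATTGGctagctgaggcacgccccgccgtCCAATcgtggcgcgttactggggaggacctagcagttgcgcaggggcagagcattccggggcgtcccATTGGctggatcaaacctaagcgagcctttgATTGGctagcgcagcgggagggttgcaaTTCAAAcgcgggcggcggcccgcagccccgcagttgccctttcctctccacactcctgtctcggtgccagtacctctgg

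**Figure D2:**
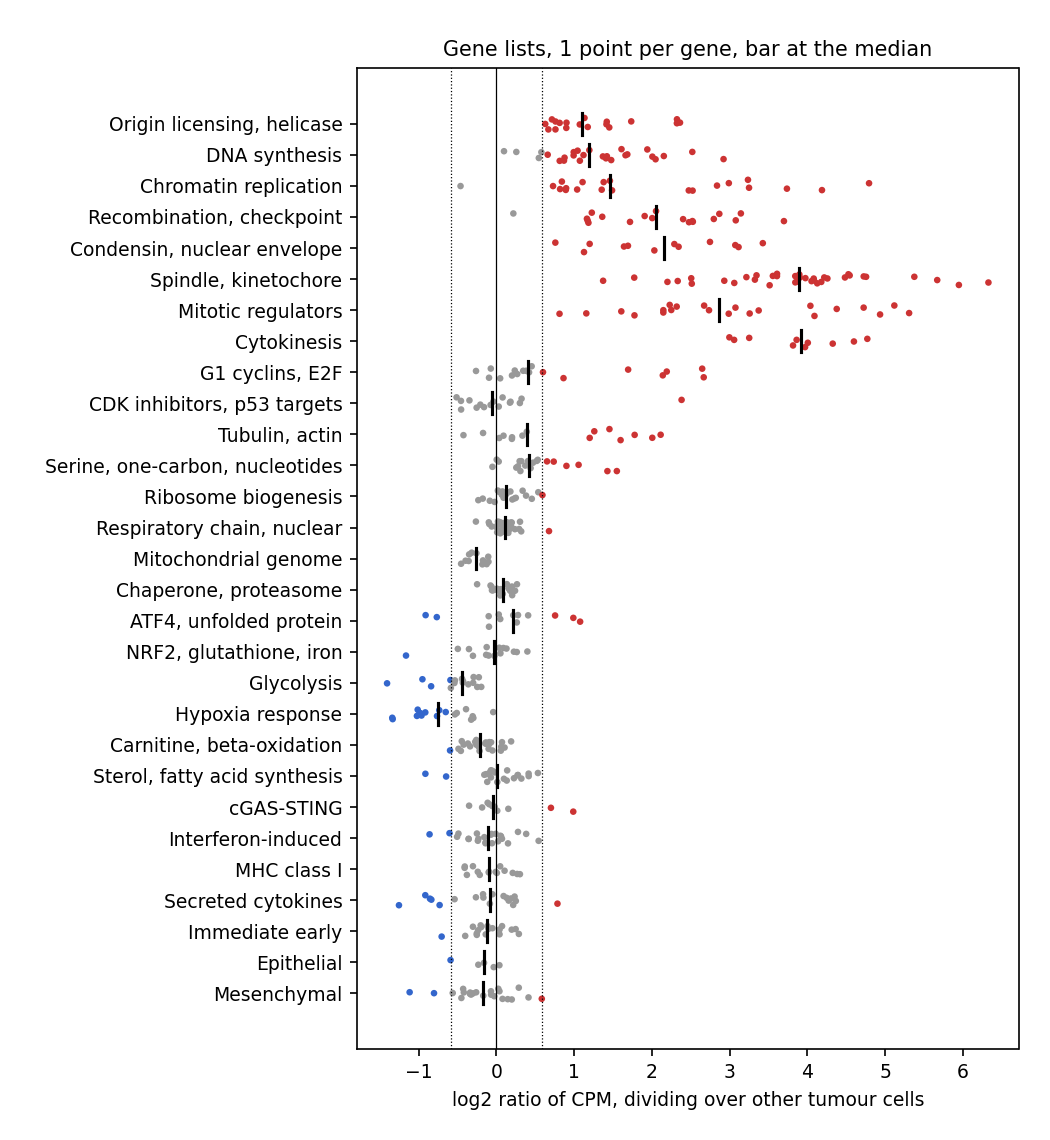
Each point is a gene of a list and the x axis gives its log2 ratio of CPM in dividing over other tumour cells, with the list's median as a bar and dotted lines at 1.5-fold. Rule genes are left out. The medians run from 3.92 for cytokinesis to -0.75 for the hypoxia response.

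Genes that package and guard replicated DNA were higher too. Of 21 chromatin replication genes, 20 were higher (median log2 ratio 1.46). H2az1, a variant histone, was at 3495 CPM in dividing and 1366 CPM in other tumour cells (1.36, 1.34 to 1.37), and Hmgb2, an HMG box protein, at 1908 and 332 CPM (2.52). H1f5, a linker histone, was at 184 and 6.63 CPM (4.79, 4.64 to 4.95). The exception, the linker histone H1f2, was at 51.6 and 71.0 CPM. Replication-dependent histone transcripts mostly lack a poly(A) tail, so a poly(A)-primed library records only part of them. All 12 condensin and nuclear envelope genes were higher (median 2.16), led by Ncapg (76.1 and 7.07 CPM, log2 ratio 3.43). Of 19 recombination and checkpoint genes 18 were higher (median 2.05), among them the Fanconi anaemia gene Fancd2 (10.5 and 0.809 CPM, 3.70, 3.26 to 4.17) and the checkpoint kinase gene Chek2 (19.0 and 2.15 CPM). Of 15 tubulin and actin genes 7 were higher. These were the tubulins Tubb4b (919 and 229 CPM, 2.01), Tuba1c, Tuba1b, Tubb6, Tubb5 and Tubg1, and Stmn1, a tubulin-binding protein (421 and 97.3 CPM, 2.11). Actb stood at 4685 and 4077 CPM.

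Genes that govern entry into the cycle differed less. Ccnd1, the D-type cyclin of these cells, was at 1644 CPM in dividing and 1430 CPM in other tumour cells (log2 ratio 0.20), and its kinase Cdk4 at 628 and 521 CPM. Of 18 G1 cyclin and E2F genes 7 were higher: the repressors E2f7 and E2f8 (17.4 and 2.77 CPM, 43.8 and 6.89 CPM), the E-type cyclins Ccne1 and Ccne2, Rbl1, Skp2 and Cdk2. Of 16 CDK inhibitor and p53 target genes 1 was higher and 0 lower (median -0.06), against 7.19% and 5.41% of all genes. These counts are not read as a result about the list. The higher gene, Cdkn2d, encodes the CDK4/6 inhibitor p19INK4d and was at 117 and 22.5 CPM (2.38, 2.30 to 2.47). Cdkn1a (p21) was at 53.3 and 42.6 CPM and Cdkn1b (p27) at 62.3 and 54.9 CPM. Cdkn2a was at 0.0291 CPM in dividing cells.

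Hypoxia response genes were lower in the dividing cells. Of 18 genes 11 were lower and 0 higher, and the median log2 ratio was -0.75. Ndrg1, a hypoxia and stress response gene, was at 186 CPM in dividing and 471 CPM in other tumour cells (-1.34, -1.37 to -1.31). Its per-cell quartiles were 19.4, 66.9 and 175 CPM in dividing and 47.2, 167 and 541 CPM in other tumour cells, so the cells overlapped widely. After the same thinning as for Aurkb above, 13.5% of dividing cells had an Ndrg1 UMI. The thinned share was 27.1% in other tumour cells and 13.8% in neutrophils. The dividing cells were thus close to the neutrophils for this gene, and the reason was not tested. Without thinning, the shares were 77.5%, 80.9% and 20.4%. Car9, a carbonic anhydrase, was at 12.5 and 31.4 CPM (-1.33, -1.45 to -1.21), with 15.7% of its UMIs in dividing cells coming from 10 cells. Fam162a, a mitochondrial protein induced by hypoxia, was at 533 and 886 CPM (-0.73). The other lower genes were Adm, P4ha1, P4ha2, Bnip3, Ero1a, Pdk1, Mxi1 and Vegfa. Summed over the list, the median dividing cell of at least 5000 UMIs held 12.1 of these UMIs per 10000, against 21.5 in other tumour cells, and 24.2% of dividing cells reached that second value. Depth moved with the result. Compared within depth ranges the median was -0.48 with 8 genes lower, and in cells of 10000 to 40000 UMIs -0.54 with 8 lower. The letters ACGTG or GCGTG, the core of the hypoxia response element, were on either strand in 85.7% of 21 promoter windows of these genes, against 43.8% of all windows, 64.6% of windows of genes kept for comparison and 73.8% of the windows of the spindle, mitotic regulator and cytokinesis genes.

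All 16 glycolysis genes kept were below 0 on the log2 scale, with a median of -0.44. By 1.5-fold 4 of them were lower, against 5.41% of all genes. These were Aldoc (26.1 CPM in dividing and 69.2 CPM in other tumour cells, -1.40), the hexokinase gene Hk2 (53.3 and 103 CPM, -0.95), the glucose transporter gene Slc2a1 (71.9 and 128 CPM, -0.84) and Aldoa (965 and 1452 CPM, -0.59). Gapdh (3110 and 3556 CPM) and Pkm (1003 and 1188 CPM) were closer. Genes of the mitochondrial genome (median -0.26) had 0 of 11 past 1.5-fold. Of 31 nuclear respiratory chain genes 1 was higher, against 7.19% of all genes. This was Cycs, cytochrome c (449 and 281 CPM, 0.68), and within depth ranges its log2 ratio was 0.39.

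Genes of serine, one-carbon and nucleotide synthesis leaned higher. Of 20 genes 6 were higher and 0 lower (median 0.42), and 3 were higher within depth ranges. Mthfd2, the mitochondrial folate enzyme, was at 93.7 CPM in dividing and 32.0 CPM in other tumour cells (1.55, 1.47 to 1.63). Psat1, an enzyme of serine synthesis, was at 49.5 and 18.4 CPM (1.43, 1.33 to 1.53), and Shmt2, Shmt1, Phgdh and Psph were the others. Of 13 genes of the ATF4 and unfolded protein responses, Trib3 (25.8 and 12.2 CPM), Chac1 and Asns were higher, while Nupr1 (404 and 686 CPM) and Dnajb9 were lower. Over all genes 7.19% were higher and 5.41% lower. Among 21 ribosome biogenesis genes 1 was higher, against 7.19% of all genes. This was Nhp2 (264 and 175 CPM, 0.59), with a log2 ratio of 0.28 within depth ranges.

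Cpt1a, the gene targeted in the other tumour, was at 14.3 CPM (13.4 to 15.2) in dividing and 19.5 CPM in other tumour cells of the control tumour, a log2 ratio of -0.44 (-0.57 to -0.32). Of 25 carnitine and beta-oxidation genes 1 was lower, against 5.41% of all genes. This was Acadm (59.3 and 89.5 CPM, -0.59), which missed 1.5-fold under 7 of the alternative settings. Of 21 sterol and fatty acid synthesis genes 2 were lower, against the same 5.41% of all genes. These were Scd1 (18.3 and 34.4 CPM) and Scd2 (104 and 163 CPM), both stearoyl-CoA desaturases. Within depth ranges Scd2 was at a log2 ratio of -0.47. Among 15 genes of the NRF2, glutathione and iron list 1 was lower, against the same 5.41% of all genes. This was Hmox1, heme oxygenase, at 61.1 and 137 CPM (-1.16), with 24.6% of its UMIs in dividing cells coming from 10 cells.

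Of 19 secreted cytokine genes 5 were lower and 1 higher, against 5.41% and 7.19% of all genes. The list's median log2 ratio was -0.08. Without doublets 17 genes were kept, 4 were lower, 1 was higher and the median was 0.10, the opposite sign. Tslp, an epithelial cytokine of type 2 immunity, was at 716 CPM in dividing and 1294 CPM in other tumour cells (-0.85, -0.87 to -0.84). Its quartiles per cell were 146, 417 and 947 CPM in dividing and 247, 767 and 1830 CPM in other tumour cells. After thinning to 1000 UMIs 38.9% of dividing and 51.1% of other tumour cells had a Tslp UMI, against 1.25% of neutrophils. Unthinned, the shares were 92.9%, 92.5% and 2.57%. Cxcl5, a neutrophil-attracting chemokine, was at 93.4 and 222 CPM (-1.25, -1.30 to -1.21). Vegfa, an angiogenic factor, was at 47.7 and 89.9 CPM (-0.91, and -0.51 within depth ranges), and Tgfb3 and Tnf were the other lower genes. Lif was higher at 33.3 and 19.3 CPM (0.79). The chemokine genes Ccl2 (1787 and 1502 CPM) and Cxcl1 (751 and 704 CPM) stayed within 1.5-fold.

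Of 10 cGAS-STING genes 2 were higher, against 7.19% of all genes, and the list's median log2 ratio was -0.04. With the limit at 0.1% of UMIs 1 of the 10 was higher. Cgas, the sensor of cytosolic DNA, was at 20.1 CPM in dividing and 10.1 CPM in other tumour cells (0.99, 0.85 to 1.13), and Banf1, a chromatin-binding protein, at 195 and 119.7 CPM (0.70, and 0.54 within depth ranges). None of 24 interferon-induced genes was higher and 2 were lower, against 7.19% and 5.41% of all genes. The lower ones were Ifit3 (4.50 and 8.16 CPM) and Ifit1, with 46.9% of the Ifit3 UMIs of dividing cells coming from 10 cells. All 15 MHC class I genes stayed within 1.5-fold, B2m at 2159 and 2859 CPM. All 21 chaperone and proteasome genes did as well. Of 18 immediate early genes 1 was lower, Klf4 (190.3 and 309.7 CPM, -0.70, and -0.44 within depth ranges). With the limit at 0.1% of UMIs, and in cells of 10000 to 40000 UMIs, 0 of these 18 were lower. Of 5 epithelial genes 1 was lower, Lgals3 (922 and 1387 CPM, -0.59). Over all genes 5.41% were lower, and these single genes are not read as a result about their lists. Lgals3 and Ifit1 each missed 1.5-fold under 9 of the alternative settings.

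Of 23 mesenchymal genes 2 were lower and 1 higher, against 5.41% lower and 7.19% higher over all genes. Counts this small are not read as a result about the list. Thbs1, thrombospondin 1, was at 82.9 CPM in dividing and 179.6 CPM in other tumour cells (-1.11, and -0.56 within depth ranges), and Fn1, fibronectin, at 332 and 579 CPM (-0.80). Tagln2, an actin-binding protein, was at 1609 and 1073 CPM, right at the 1.5-fold limit. Spp1, osteopontin, was at 8419 and 11492 CPM and Lgals1 at 9307 and 8108 CPM. The fibroblast marker list moved in the same direction (250.2 and 405 CPM, median log2 ratio -0.62), and its part in these values was not tested. Fibroblast markers had a median of 0.62 when the tumour gene limit was 0.2%, the opposite sign. Their median was -1.19 within depth ranges and -2.06 in cells of 10000 to 40000 UMIs, so those settings held a larger fibroblast difference.

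Outside the cycle lists, the 12 genes of at least 20 CPM with the highest ratios ran from a log2 ratio of 5.43 to 4.45. They were Esco2, which acetylates cohesin (83.9 CPM in dividing and 1.95 CPM in other tumour cells), Sapcd2 (43.7 and 1.03 CPM), Iqgap3, Depdc1a, Mxd3, Troap, Aspm, Pimreg, Kifc1, Neil3, Ska1 and Espl1. Several act in mitosis: Aspm at spindle poles, Kifc1 as a minus-end motor, Ska1 at kinetochores, and Espl1 as separase, which cuts cohesin. The 12 lowest ran from -1.925 to -1.29. Tcp11l2 was at 11.9 and 45.2 CPM (-1.925, -2.04 to -1.81), Trp53inp2, an autophagy factor, at 6.58 and 21.7 CPM, and Mxd4, a MAX partner that opposes MYC, at 7.17 and 20.1 CPM (-1.49, -1.65 to -1.34). H2bc4, a histone gene, was at 34.7 and 97.2 CPM, the opposite direction to H1f5. The others were Ccn5, Tnfrsf9, Aldoc, Col12a1, Ndrg1, Car9, Masp1 and Mical2. Fibroblasts also express the matrix genes Ccn5 (30.3 and 89.7 CPM) and Col12a1 (30.6 and 80.2 CPM), and the fibroblast list summed to 250.2 and 405 CPM. Its part in these values was not tested. In dividing cells 23.8% of Tnfrsf9 UMIs came from 10 cells.

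Levels were followed over 7 ranges of the rule share, in the tumour cells of at least 5000 UMIs. Spindle and kinetochore genes summed to 248 CPM in the 1299 cells under 0.01%, to 1457 CPM at 0.03 to 0.05% just under the limit, to 2518 CPM in the 342 dividing cells at 0.05 to 0.1%, and to 8088 CPM in the 572 cells at 0.4% and over. Licensing genes had their highest value in the middle: 293, 1280, 1650, 1699, 1240 and 928 CPM under 0.01%, at 0.03 to 0.05%, 0.05 to 0.1%, 0.1 to 0.2%, 0.2 to 0.4%, and 0.4% and over. Cells just under the limit thus held licensing transcripts above those of the cells with the highest rule share. Hypoxia genes were at 3543 CPM in the lowest range and 2635 CPM at 0.01 to 0.03%, reached 2025 CPM at 0.03 to 0.05%, and lay between 1690 and 1887 CPM in the 4 ranges of dividing cells. Tslp went from 1402 CPM in the lowest range to 1023 CPM just under the limit and 646 CPM in the highest. The median UMIs per cell went from 19591 to 36541.5 over the same ranges. Fibroblast markers summed to 589.7 CPM in the lowest range and to 468, 122, 213 and 255 CPM in the ranges of dividing cells. The part of depth and of fibroblast transcripts in these values was not tested.

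**Figure D3:**
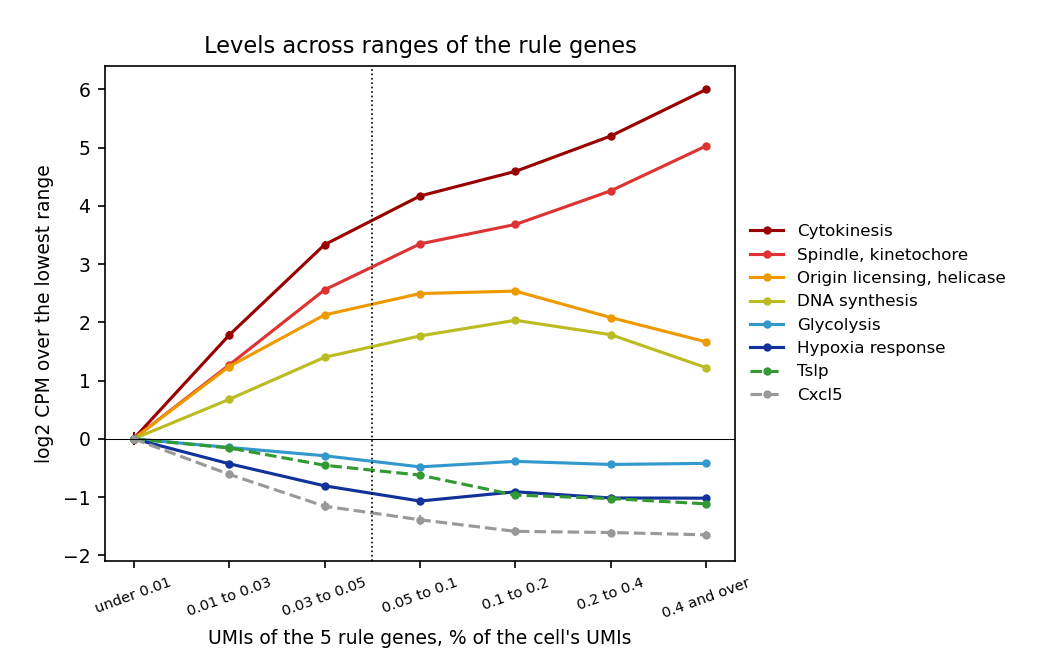
The x axis gives 7 ranges of the rule share (percent of UMIs in the 5 rule genes) and the y axis the log2 of the pooled CPM over that of the lowest range, for gene lists (solid) and single genes (dashed). Bars are 95% counting intervals, the dotted line marks the limit of 0.05%, and licensing genes have their maximum at 0.1 to 0.2% (1699 CPM).

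The dividing cells were then ordered by their S fraction, the UMIs of 46 licensing and DNA synthesis genes divided by the sum of these and the UMIs of 69 spindle, mitotic regulator and cytokinesis genes. This is a range and not a set of cell types. In 1796 dividing cells of at least 5000 UMIs the median was 0.289, with quartiles of 0.177 and 0.479. The order used those genes, so their levels along it are a description. Under 0.25 there were 752 cells (M-leaning), from 0.25 to 0.5 there were 643, from 0.5 to 0.75 there were 388, and 13 lay above. The upper ranges were joined into 401 S-leaning cells after the cells had been counted. Within 0.05 of the cuts at 0.25 and 0.5 lay 391 and 185 cells. Median depth was 34157 UMIs in S-leaning and 33552.5 UMIs in M-leaning cells.

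Between these ranges 654 of 9238 genes (7.08%) were higher and 544 (5.89%) lower in S-leaning cells, with a median log2 ratio of 0.02. Outside the ordering genes, 12 were named in each direction by their ratio. Towards S, Ccne2, an E-type cyclin, was at 44.2 CPM in S-leaning and 1.54 CPM in M-leaning cells (log2 ratio 4.85, 4.39 to 5.33), Ccne1 at 79.1 and 7.99 CPM (3.31) and E2f1 at 106 and 11.5 CPM (3.19). Dna2 and Dscc1, which act at replication forks, Chaf1b, of a histone chaperone, and Dck, a deoxynucleoside kinase, were also among the 12. Ctsk was at 36.3 and 2.60 CPM, with 99.8% of the S-leaning UMIs in 10 cells. Towards M stood Sapcd2 (6.27 and 82.3 CPM, -3.71), Gas2l3 (5.24 and 66.7 CPM, -3.67), which binds actin and microtubules, Aspm (19.1 and 125 CPM) and Arl6ip1 (69.7 and 450.1 CPM, -2.69). Fabp4 was at 3.38 and 30.8 CPM, with 99.5% of the M-leaning UMIs in 10 cells.

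Gene groups that the order did not use also differed along it. Serine, one-carbon and nucleotide genes were higher in S-leaning cells for 13 of 20 (median 0.76, 0 lower), recombination and checkpoint genes for 17 of 20 (1.28) and ribosome biogenesis genes for 6 of 21 (0.47). Hypoxia genes were lower in S-leaning cells for 8 of 18 (-0.43, 0 higher). Summed, they were at 1998, 1689, 1489 and 1281 CPM from the lowest to the highest S fraction, and Ndrg1 was at 232, 173, 123 and 87.9 CPM. Tslp went the other way, at 595, 733, 912 and 964 CPM, so the M-leaning dividing cells held the least of it. Cdkn1b was at 86.7 CPM in M-leaning and 38.0 CPM in S-leaning cells (-1.19). Ccnd1 was level at 1678 and 1667 CPM, as was Myc at 295 and 283 CPM. MHC class I genes were lower in S-leaning cells for 4 of 15. Macrophage markers were at 57.6 CPM in M-leaning cells and 31.1 CPM at an S fraction of 0.5 to 0.75, and fibroblast markers at 294 and 143 CPM. Their part in these values was not tested.

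**Figure D4:**
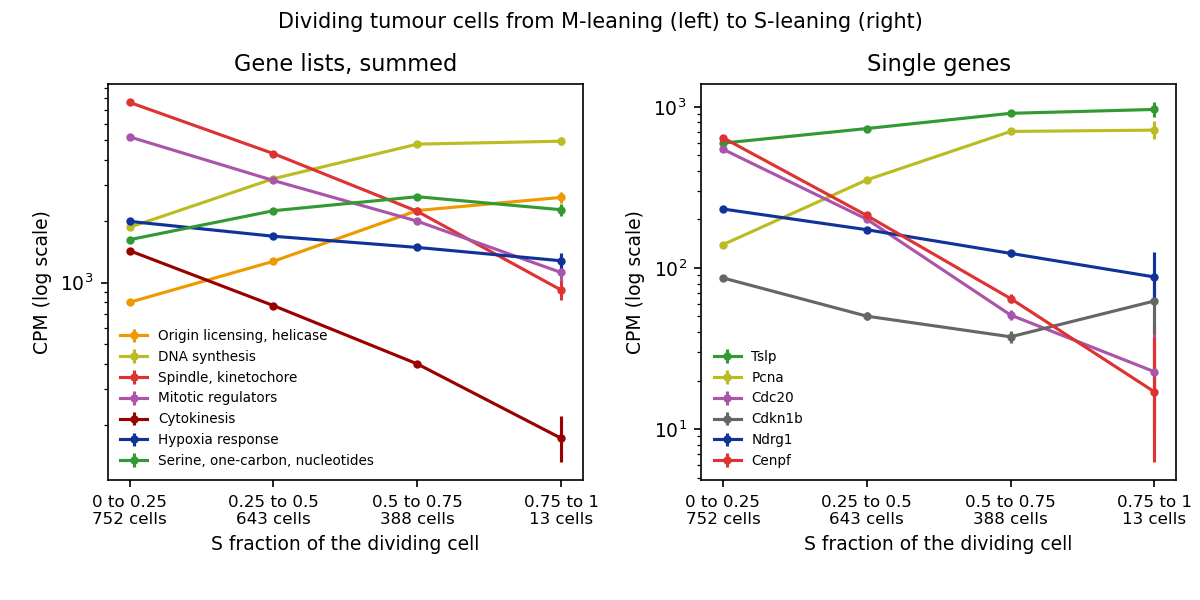
The x axis gives 4 ranges of the S fraction of the dividing cells with the cells in each, and the y axis pooled CPM on a log scale, for summed gene lists (left) and single genes (right). Bars are 95% counting intervals. Hypoxia genes run from 1998 down to 1281 CPM and Tslp from 595 up to 964 CPM, and the last range holds 13 cells.

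Replication genes were not limited to the dividing set. Of 2349 other tumour cells of at least 5000 UMIs, 236 (10.0%) reached the dividing cells' median for S genes, 37.5 UMIs per 10000. Of the same 2349 cells, 18 reached the dividing cells' median for mitotic genes, 90.6 UMIs per 10000. These cells were chosen for few UMIs of the rule genes, which act mainly in G2 and mitosis. The rule itself thus favours a low count for mitotic genes, and nothing is read from it. The median other tumour cell held 11.8 S and 7.72 mitotic UMIs per 10000.

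The library also held 264 cells called dividing leukocytes. They were chosen by the same limit on the rule genes, at least 1 Ptprc UMI and tumour genes under 0.02% of UMIs. Their median was 6131.5 UMIs and their lower quartile 1839 UMIs, a depth at which 1 rule UMI is enough to pass. Neutrophil genes were not capped. Some of the leukocytes may therefore not divide, and how many was not counted. The leukocytes were a mixture, with T cell (Cd3e at 116 CPM), macrophage (C1qa at 841 CPM) and neutrophil (S100a8 at 367 CPM) transcripts. The values are set side by side with no test, and over all 10601 genes 30.2% were higher and 28.2% lower in the dividing tumour cells (median log2 ratio 0.07). Licensing genes had a median of -0.05 and DNA synthesis genes of -0.16, while mitotic regulators had one of 0.67, with 12 of 22 higher and 2 lower. Anln was at 225 CPM in tumour cells and 43.5 CPM in leukocytes. Ccnd1 had the highest level of the D-type cyclins in dividing tumour cells, while Ccnd2 and Ccnd3 were higher in leukocytes than in those tumour cells. Within leukocytes the intervals of Ccnd1 (129 to 161 CPM) and Ccnd2 (114 to 145 CPM) overlapped, so these genes are not ranked there. The part of tumour cell RNA in the leukocyte values was not tested. Ccnd1 was at 1644 CPM in dividing tumour cells and 144 CPM in dividing leukocytes, Ccnd2 at 3.34 and 129 CPM, and Ccnd3 at 41.8 and 105 CPM. CDK inhibitor and p53 target genes had a median of -0.85, with 3 of 19 higher and 10 lower. Among the lower ones were Cdkn1a (53.3 and 362 CPM), Btg2 (82.9 and 615 CPM) and Gadd45b (59.4 and 569 CPM). Cdkn2d, the inhibitor that was high in dividing tumour cells, was at 117 CPM in them and 155 CPM in leukocytes. Chromatin replication genes had a median of -0.63, with 12 of 23 lower.

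**Figure D5:**
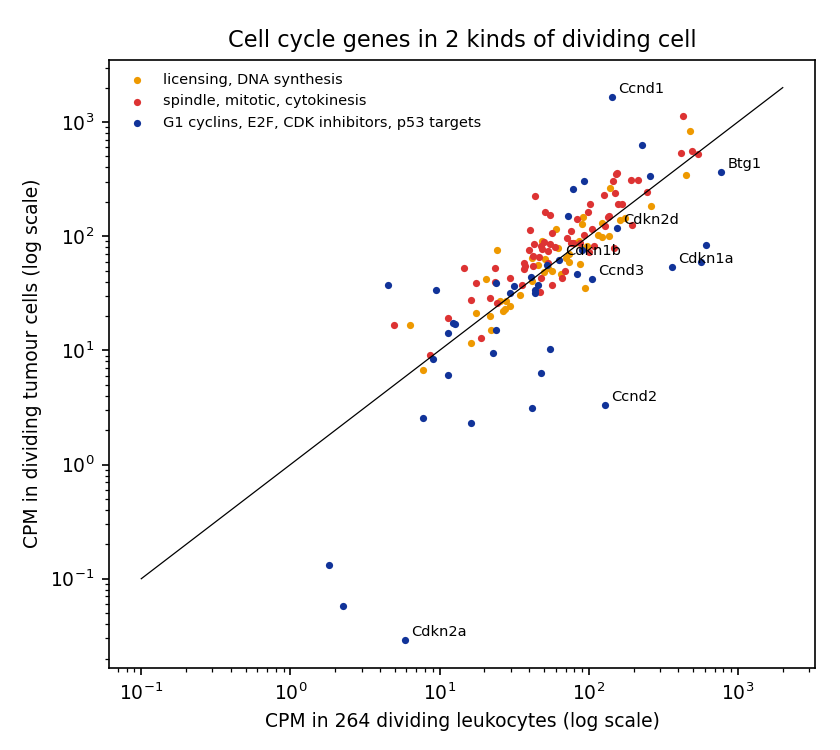
Each point is a cell cycle gene. The x axis gives its CPM in the 264 dividing leukocytes and the y axis its CPM in the 1854 dividing tumour cells, both on log scales, with the line of equal level. Ccnd1 (1644 and 144 CPM) lies above the line and Ccnd2 (3.34 and 129 CPM) below it.

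In the sgCPT1A library the same rule left 9 tumour cells of 6743 kept (0.133%, 0.0610 to 0.253%). Of these 1 was dividing (11.1%, 0.281 to 48.2%), with 0.0565% of its 47813 UMIs in the rule genes. No comparison of dividing tumour cells between the guides was made.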

How the data were processed

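Single-cell 3′ RNA libraries of 1 sgVC and 1 sgCPT1A tumour were analysed. The deposited matrices hold raw UMI counts per gene and barcode (55357 gene rows), made with Cell Ranger 7.1.0 per the file headers. The submitters' processing notes also name Seurat 4.1.0 and GRCm38, and the annotation release is not given in the sources used here. Cells were chosen by the rule stated above and counts were summed over each set, with 68661276 UMIs in dividing and 54420793 in other tumour cells. Levels are CPM of a set. Genes under 5 CPM over all tumour cells were left out. Poisson, Clopper-Pearson and conditional binomial intervals (95%) came from scipy 1.17.1, and doublets were marked with Scrublet in scanpy 1.11.5. The interval code was tested on simulated data. Deeper cells weigh more in a pooled CPM, and an equal weight per cell was an alternative. Coordinates are from GENCODE M21. Where 2 rows share a symbol, the gene at the RefSeq locus was used.

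Named genes were the 5 rule genes and markers, up to 4 per list (highest level and largest ratio), the 12 highest outside the cycle lists and 12 lowest ratios at 20 CPM or more in the higher set, leaving out mitochondrial, ribosomal, predicted, haemoglobin and marker genes, and Cpt1a and Tslp. Genes named beyond that, and the joined S ranges, were chosen after their values were seen. The members and the 29 gene lists and 10 marker lists were chosen with earlier results of these data known. Dendritic markers summed to 172 CPM in dividing and 185 CPM in other tumour cells, pericyte markers to 10.6 and 4.67, B cell markers to 0.714 and 1.30, erythroid markers to 0.0583 and 0.496 and normal mammary markers to 0.539 and 0.349 CPM.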

Additional observations from a re-analysis of the deposited data

How the results depend on the processing

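The dividing share of 43.0% of tumour cells was 34.8% with the limit on the rule genes at 0.1%, 45.3% with the tumour gene limit at 0.2%, 34.6% in cells of 10000 to 40000 UMIs and 39.5% with Top2a left out of the rule. With stricter cell filters, without doublets, after thinning to 5000 UMIs and in cells of at least 5000 UMIs (the last added after seeing the data) it lay between 43.1% and 43.3%. Genes higher in dividing cells numbered 668, and 383 at 2-fold. Genes lower numbered 503, and 930 with genes of at least 1 CPM, 74 at 2-fold and 268 within depth ranges (added after seeing the data). The causes were not tested, other than that 2-fold is a stricter limit and 1 CPM admits more genes. The fibroblast marker median turned from -0.62 to 0.62 with the tumour gene limit at 0.2%. It was -1.19 within depth ranges and -2.06 in cells of 10000 to 40000 UMIs, and the cause was not tested. Of the other values, 1349 moved little and 912 moved beyond their counting interval or count limit. The medians of the 9 cell cycle lists kept a positive sign under every setting run, and those of the hypoxia and glycolysis lists a negative one. No paired analysis was possible because each guide had 1 analysed library. Depth limits the rule in shallow cells, where 9 members rest on a single UMI.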
